A study of Paeonia lactiflora with 8 samples.

Results

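The 2 young fruit libraries of the herbaceous peony Paeonia lactiflora were set against the 6 small RNA libraries of root, leaf and flower. The fruit samples came from the young fruit period, while root, leaf and flower came from the blossom period, so organ and stage cannot be told apart for fruit. Each tissue had 2 libraries, which the series' design text calls biological replicates, all from the same species with no treatment, and the number of plants in a sample is not given in the labels. The study chose the tissues because they differ in paeoniflorin, a monoterpene glucoside of peony that was not measured in these files. The members were the 8 libraries and every mature sequence with a normalized read count of 1 or more in 2 or more of them. That left 216 of the 270 different sequences in the table. Of the 216, 158 had a value above 0 in at least 1 fruit library, 116 had one in both, and 58 were listed at 0 in both. Small RNA holds no organ marker set, so the tissue labels could not be checked against markers.

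MicroRNAs are short RNAs cut as a duplex from a hairpin precursor. One strand, the guide, is loaded into an ARGONAUTE protein and pairs with matching messenger RNAs, which are then cleaved or translated less, while the opposite strand of the duplex is mostly lost. In plants, conserved families control transcription factors that set organ identity and growth, and other families act on disease-resistance genes, nutrient transporters or the silencing machinery itself. The functions given below for each family are known from other plants, and no target was measured in these files.

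The sequences on which the fruit results turn are printed below, 5′ to 3′, with the seed (bases 2 to 8) in capitals. The first 4 had both fruit libraries above all others. gma-miR396a-5p, the common form of its family, is shown for comparison, since the short miR396 form shares its first 17 bases and its seed.
sly-MIR6022-p3_2ss15TG17GA: cGAAACCTcaatctggagtaga
mes-miR403a_1ss19TC: tTAGATTCacgcacaaacccg
PC-3p-503_5584: cGGTGGAAgaatggattcgggg
ath-miR396b-5p_R-2_2ss18AT19CT: tTCCACAGctttcttgatt
gma-miR396a-5p: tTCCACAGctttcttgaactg

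The next set was low in fruit or listed at 0 there, with the common miR171 form, ath-miR171a-3p_1ss17AG, for comparison. The long miR171 form carries 1 more base at its 5′ end than the common form, so its seed is shifted by that base. The 18 nt miR5213 form is the right end of the 21 nt form, and the 3 miR169 sequences share 1 seed.
mtr-miR5213-5p_R-1_1ss2AG: tGCGTGTGtcttcacctctga
mtr-miR5213-5p_L-3R-1: gTGTGTCTtcacctctga
zma-miR171a-3p_L+1R+1_1ss18AG: cTGATTGAgccgcgccagtatc
ath-miR171a-3p_1ss17AG: tGATTGAGccgcgccagtatc
sbi-miR169e: tAGCCAAGgatgacttgccgg
nta-miR169b: cAGCCAAGgatgacttgccga
ata-miR169a-5p_R-1: tAGCCAAGgatgatttgcctgt
ath-miR858b: tTCGTTGTctgttcgaccttg
aly-miR395d-5p_2ss5TC8CG: gTTCCCCGgaacacttcattg

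The last set holds the leading fruit miRNA, of the miR159 family, and a sequence named for the opposite arm of a miR159 hairpin. By their letters these 2 sequences do not form a duplex. The set also holds the sequences with the widest gaps between the 2 fruit libraries.
ath-miR159a: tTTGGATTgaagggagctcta
vvi-MIR159c-p5_1ss10CA: aGCTGCTGaattatggatccc
ath-miR157a-5p_2ss12TG15AG: tTGACAGAagagagggagcac
gma-MIR156f-p3_1ss12CG: gCTCTCTCttcgtctgtcatca
vvi-miR167b: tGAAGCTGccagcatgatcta
ppe-miR530_L-2R+2: tGCATTTGcacctgcacctcg

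The values are the authors' normalized read counts. In each library, the largest step that gave whole multiples for most values above 0 was taken as the value of 1 read. On that reading there were 128476 and 201512 implied reads in fruit 1 and fruit 2, against 178083 and 73898 in root, the least deep tissue, and 254828 to 724509 in the leaf and flower libraries. A count of 3 reads, below which absence cannot be read, was worth 4.19 in fruit 1 and 2.77 in fruit 2, and 1.3 to 7.62 in the others. These floors cover counting error only. Listings at 0 in both libraries of a tissue were most frequent in fruit, at 58 miRNAs, against 46 in root, 38 in leaf and 26 in flower. Of the 58, 37 averaged under 10 over the 6 other libraries.

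The 10 miRNAs with the highest fruit mean held 77.0% of the fruit total. Each library's own 10 highest held 81.0% and 76.5% in fruit, against 79.4% to 91.5% in the 6 others. Whole organs were sampled, so fewer cells of a type and less RNA per cell cannot be told apart here. ath-miR159a, which acts on GAMYB transcription factors, made up 40.02% of fruit 1 and 29.5% of fruit 2. The other 9, in falling order of fruit mean, were gma-miR396a-5p, bdi-miR166a-3p, ath-miR168a-5p, vvi-miR167b, ath-miR157a-5p_2ss12TG15AG, gma-miR6300_R+5, vvi-MIR159c-p5_1ss10CA, mes-miR403a_1ss19TC and PC-3p-503_5584. The 23 nt gma-miR6300_R+5 begins like plant transfer RNA for aspartate. It stood at 2734 and 6240 in fruit, against 8454 and 28999 in root, 10308 and 7257 in leaf and 18850 and 3059 in flower.

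By family, miR159 took 42.6% and 31.4% of the fruit libraries. miR396, which acts on GROWTH-REGULATING FACTOR genes of cell proliferation, took 19.9% and 8.19%, against 1.25% to 19.8% in the 6 others. The miR166 family, which acts on class III HD-ZIP genes of organ polarity, took 7.64% and 8.32% of fruit, against 6.10% to 28.4% in the others. These 3 families overlapped between fruit and the rest. miR168, which acts on ARGONAUTE1, took 6.61% and 6.69%, inside a range of 0.553% to 18.9% elsewhere.

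Of 84 families, 5 had a share above all 6 others in both fruit libraries and 4 had one below. The highest of the 5 was miR403, a regulator of ARGONAUTE2, at 2.14% and 2.02% in fruit, against 0.0771% to 0.932% in the others. The rest of the 5 were miR6022, miR1097, miR8642 and miR437, each under 0.4% of fruit. The 4 low families were miR858, miR5213, miR169 and miR6173. miR858 took 0.172% and 0.144% of fruit, against 0.325% to 1.40% elsewhere. Sequences of 21 nt held 89.4% and 88.0% of fruit, against 58.7% to 94.8% in the others.

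**Figure D1:**
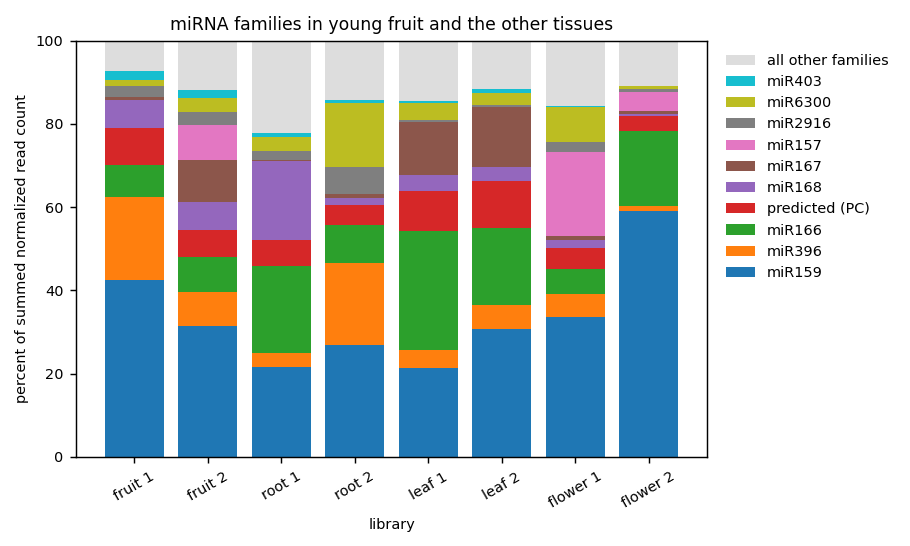
Stacked bars give the percent of each library's summed normalized read count held by 10 miRNA families and by all others, for the 2 fruit libraries and then root, leaf and flower. miR159 is the largest block in both fruit libraries (42.6% and 31.4%), and the miR167 and miR157 blocks are wide in fruit 2 and thin in fruit 1.

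In the test of fruit against the mean of root, leaf and flower, limma called 5 of 216 miRNAs (2.31%) at an adjusted p under 0.05. Of these, 2 were higher in fruit (0.926%) and 3 lower (1.39%). At an unadjusted p under 0.05 there were 11 higher and 31 lower. The median log2 difference of all 216 was -0.55, and with every library scaled to the same total it was -0.12, so differences are to be read against that shift. The split of calls was 1 higher and 3 lower after that scaling, and 0 and 0 after quantile normalization, with 33 miRNAs at an unadjusted p under 0.05. With fruit 1, fruit 2, leaf 1, leaf 2, flower 1 or flower 2 left out, 0 miRNAs were called, while 20 to 39 had an unadjusted p under 0.05. Without root 1 there were 23 calls, and without root 2 there were 24.

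sly-MIR6022-p3_2ss15TG17GA, a 22 nt sequence, rose in fruit. In tomato, the annotated miR6022 is known to act on receptor-like protein genes of disease resistance. The sequence here is named for an arm of that hairpin, with base substitutions, and whether it has those targets was not tested. It had 708 and 452 in fruit, against 0 and 0 in root, 81.8 and 217 in leaf and 9.94 and 36.3 in flower. Both fruit libraries were above all others, the lower of them 2.09 times the highest leaf library, and both root libraries were listed at 0. Its mean was 10.1 times the mean of the 6 others. The log2 difference was 5.34 ± 0.84 (SE; limma adjusted p = 0.0425), and the zeros in root give no spread between replicates there. Over 19 alternatives this difference ran from 4.03 to 5.98. The sequence was not called with a pseudocount of 10 or quantile normalization, nor with the 6 others fitted as 1 group or with a replicate block.

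ath-miR396b-5p_R-2_2ss18AT19CT, a 19 nt form, was the other sequence called higher, at low values. It had 13.96 in fruit 1 and 3.69 in fruit 2 and was listed at 0 in all 6 others, and it was the one tested sequence above 0 in both fruit libraries and nowhere else. It passed the filter on low values through fruit alone, and the zeros elsewhere give it no spread there, so its call supports nothing and its values are a description. Beside gma-miR396a-5p it amounted to 0.0470% in fruit 1 and 0.0325% in fruit 2. In the other libraries a count of 3 reads would be 0.0177% to 0.0692% of gma-miR396a-5p, so a share like that of fruit 2 was not detectable in 4 of the 6. gma-miR396a-5p itself had 29673 and 11363 in fruit, against 6168 and 12802 in root, 6965 and 8047 in leaf and 7323 and 5797 in flower. Fruit 2 lay below root 2, and the log2 difference of 1.28 ± 0.59 (SE) did not pass (limma adjusted p = 0.297).

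Another 7 miRNAs had both fruit libraries above the 6 others without being called, making 9 in all (4.17%). Counts above or below the range carry no test. From 8 libraries 28 pairs can be drawn, and how many miRNAs other pairs place outside the range was not counted. The most abundant of the 7 was mes-miR403a_1ss19TC. It had 3802 and 3718 in fruit, against 2009 and 1131 in root, 1572 and 2273 in leaf and 821 and 404 in flower. The fruit libraries were nearly equal, and the log2 difference was 1.67 ± 0.56 (SE; limma adjusted p = 0.194).

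PC-3p-503_5584, a sequence of the PC class, for which the authors found no known hairpin, had 3481 and 2866 in fruit. It had 506 and 219 in root, 914 and 896 in leaf and 1234 and 2194 in flower. Fruit was 3.19 times the mean of the others, with a log2 difference of 1.995 ± 0.58 (SE; limma adjusted p = 0.176). Over the alternatives the limma adjusted p ran from 0.0444 to 0.68, and it passed in 1 of 19, without root 1. 3 more predicted sequences were above the range, namely PC-5p-18231_232 at 85.1 and 47.0, PC-3p-2538_1328 at 543 and 314, and PC-5p-61518_72 at 26.5 and 25.8. In the same order their highest other values were 43.8, 294 and 22.3.

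The last of the 9 were ath-miR162a-5p_L-1 and vvi-miR156a_L+1_1ss21CT. ath-miR162a-5p_L-1 is the opposite strand of a family that acts on DICER-LIKE1, and it had 44.7 and 36.0 in fruit, against 0 to 30.4 in the others. vvi-miR156a_L+1_1ss21CT had 10.5 and 10.1 in fruit, against 0 to 8.86. Of the 9, 8 were 21 or 22 nt long. How many of the 216 tested have those lengths was not counted, so this is not read as a trait of the 9. When values were taken as a percent of the library total, all 9 stayed above the others and the count grew to 20.

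Of the 3 miRNAs that fell in fruit, mtr-miR5213-5p_R-1_1ss2AG was the one still measured there. In Medicago, miR5213 is known to act on TIR-type NLR resistance genes, which encode intracellular immune receptors. It had 78.9 and 148 in fruit, against 4893 and 999 in root, 2353 and 1699 in leaf and 3267 and 7796 in flower. The lowest other library, root 2, was 6.73 times the higher fruit library, and the mean of the others was 30.8 times that of fruit. The log2 difference was -4.69 ± 0.79 (SE; limma adjusted p = 0.0425). Over 19 alternatives this difference ran from -5.14 to -4.13. The sequence was not called with a pseudocount of 10 or quantile normalization, nor with the 6 others fitted as 1 group or with a replicate block. The 18 nt form of the same sequence was listed at 0 in both fruit libraries, against 9.96 and 0 in root, 8.39 and 3.71 in leaf and 15.99 and 19.3 in flower, so fruit overlapped with root 2.

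zma-miR171a-3p_L+1R+1_1ss18AG fell in fruit as well, but not against root. miR171 acts on GRAS transcription factors of the HAIRY MERISTEM group, which keep meristems undifferentiated. This 22 nt form was listed at 0 in both fruit and both root libraries, against 278 and 210 in leaf and 167.7 and 787 in flower. Fruit overlapped with root, and the log2 difference from the mean of the 3 tissues was -5.48 ± 0.89 (SE; limma adjusted p = 0.0425). Over 19 alternatives this difference ran from -6.14 to -3.30. The zeros in fruit and root give no spread between replicates there, so the call is to be read with the values and not alone. The common 21 nt form, ath-miR171a-3p_1ss17AG, was present in every library, with 290 and 3274 in fruit, against 1586 and 1605 in root, 6605 and 4662 in leaf and 5789 and 23044 in flower. The long form was 4.21% and 4.50% of the common form in leaf and 2.90% and 3.42% in flower. In fruit a count of 3 reads would be 1.44% of the common form in fruit 1 and 0.0845% in fruit 2, and in root it would be 0.269% and 0.475%. Shares as high as those in leaf and flower were therefore within reach of detection in both fruit libraries, at 0 reads in each.

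hbr-MIR6173-p3_1ss3CT was the third miRNA that fell. It was listed at 0 in both fruit libraries, against 46.9 and 25.4 in root, 182 and 149.9 in leaf and 7.78 and 10.4 in flower. Every other library was above the 3-read floor of both fruit libraries, and the log2 difference was -5.28 ± 0.77 (SE; limma adjusted p = 0.0425). Over 19 alternatives this difference ran from -6.25 to -2.41, and the zeros in fruit give no spread between replicates there. Both other sequences of that hairpin name were also at 0 in fruit. hbr-MIR6173-p5_1ss10AT had 9.96 and 144 in root, 305 and 275 in leaf and 1.73 and 14.8 in flower, and hbr-MIR6173-p5 had 0 to 59.7 in those libraries. The end of hbr-MIR6173-p5 equals the start of hbr-MIR6173-p5_1ss10AT over 9 bases. The letters of these sequences resemble small-subunit ribosomal RNA of the kind found in plastids and bacteria, and no ribosomal reference was searched here.

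Both fruit libraries lay below the 6 others for 11 miRNAs (5.09%), of which 4 were listed at 0 in both fruit libraries. Of the 11, 10 were 21 or 22 nt long, again with no count of those lengths over all 216. As a percent of the library total, 8 of the 11 stayed below. Among those not called, ath-miR858b had 308 and 267 in fruit, against 1090 and 971 in root, 856.6 and 1597 in leaf and 3138 and 4664 in flower. miR858 acts on R2R3-MYB transcription factors, many of them regulators of flavonoid synthesis. The others averaged 7.13 times the fruit mean, and the log2 difference was -2.53 ± 0.53 (SE; limma adjusted p = 0.0766). Over the alternatives its limma adjusted p ran from 0.031 to 0.391, and it passed in 3 of 19, without root 1, without root 2 and with library weights.

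miR169, which acts on NF-YA transcription factors, was scarce in fruit. sbi-miR169e was listed at 0 in both fruit libraries, against 10.9 and 7.12 in root, 10.5 and 19.5 in leaf and 35.6 and 30.4 in flower (log2 difference -4.11, limma adjusted p = 0.0601). nta-miR169b and ata-miR169a-5p_R-1, which share its seed, were also at 0 in both fruit libraries, against 0 to 88.9 and 0 to 14.4 in the others. The family as a whole held 0.00311% of fruit 1 and 0% of fruit 2, against 0.0198% to 0.0502% elsewhere.

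aly-miR395d-5p_2ss5TC8CG had a log2 difference of -6.28 ± 1.34 (SE; limma adjusted p = 0.0766), a size set by the pseudocount, since it was -3.35 with a pseudocount of 10. Its family is induced by sulfate shortage and acts on sulfate assimilation and transport genes. It was listed at 0 in both fruit libraries, against 235 and 10.2 in root, 974 and 315 in leaf and 31.5 and 7.41 in flower. The guide strand mdm-miR395a had 0 and 7.84 in fruit, against 18.5 and 0 in root, 485 and 455 in leaf and 31.98 and 62.2 in flower, so fruit overlapped with root.

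The remaining low sequences include 2 predicted ones. PC-3p-859_3455 had 6.98 and 9.22 in fruit, against 26.8 to 2598 in the others, and PC-5p-97_25693 had 2253 and 2424 in fruit, against 3097 to 12229. zma-miR156a-3p_1ss22TG, the opposite strand of a miR156 hairpin, had 9.77 and 7.38 in fruit, against 30.4 to 1446. vvi-miR3630-3p_L-1 had 182 and 106 in fruit, against 223 to 1689. osa-MIR2118e-p3_2ss13TA19CT, outside the naming rule and added after its values were seen, had 7.68 and 9.22 in fruit, against 12.96 to 62.6. It is the 1 tested miR2118 sequence. As a percent of the library total it overlapped, at 0.00428% and 0.00496% of fruit against 0.00242% to 0.0247%. The share of the miR3630 family, with 2 sequences, overlapped as well, at 0.107% and 0.0596% of fruit against 0.0529% to 0.908%.

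**Figure D2:**
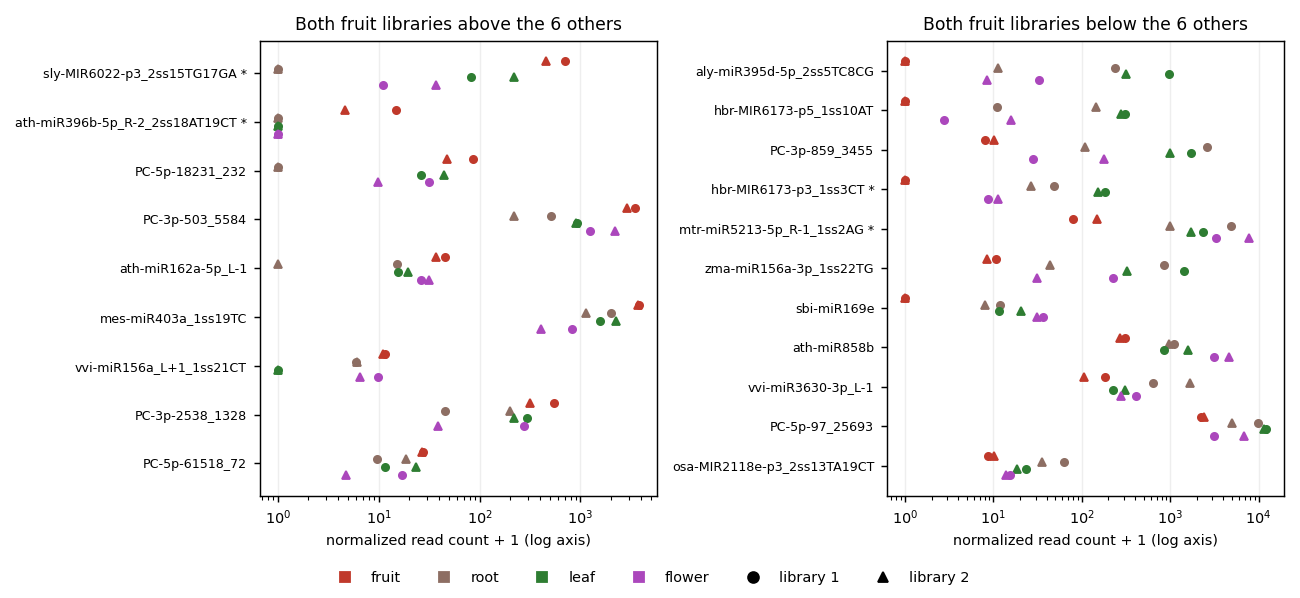
Each row is 1 miRNA, and points give the normalized read count plus 1 on a log axis in the 2 fruit libraries and the 6 others; an asterisk marks a limma call. The left panel holds the 9 miRNAs with both fruit libraries highest and the right panel the 11 with both lowest, 4 of which sit at 0 in fruit.

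Grouped by known targets, the silencing regulators had mostly positive differences and no call. Of the 10 tested members of miR162, miR168 and miR403, 9 had a log2 difference above 0 and 0 were called by limma, while 1 was higher and 1 lower at an unadjusted p under 0.05. The median was 0.85, beside -0.55 over all 216 miRNAs, and 1.41 beside -0.12 after scaling to the same total, where 9 of 10 were again above 0. Over all 216, 92 had a difference above 0. Both fruit libraries lay above the range of the others for 2 of the 10, mes-miR403a_1ss19TC and ath-miR162a-5p_L-1, beside 4.17% over all miRNAs. The 10 include opposite strands, among them ath-miR162a-5p_L-1, ath-miR168a-3p and ata-miR168-3p_1ss6CG, and forms that share a seed. They are therefore not 10 separate regulators. lus-miR162a, which acts on DICER-LIKE1, had 2478 and 1826 in fruit, against 946 and 2142 in root, 587 and 1106 in leaf and 864 and 1236 in flower. ath-miR168a-5p had 10122 and 10867 in fruit, but 45382 in root 1, and the other 5 libraries had 2312 to 9026. The summed share of the list was 10.2% and 9.71% in fruit, against 0.868% to 20.1% in the others (exact permutation p = 0.571, adjusted p = 1).

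The MYB regulators miR828 and miR858 had negative differences. All 5 tested members had a log2 difference below 0, also after either scaling, with a median of -2.26 (-1.97 scaled to the same total, -1.79 with quantile normalization), 0 calls by limma and 1 lower at an unadjusted p under 0.05. gma-miR828a had 27.2 and 16.1 in fruit, against 127 and 5.08 in root, 58.7 and 225 in leaf and 183 and 13.3 in flower, and 3 of the 5 were listed at 0 in both fruit libraries. Over all 216 miRNAs, 124 had a difference below 0, 31 were lower at an unadjusted p under 0.05 and 58 were at 0 in both fruit libraries. The summed share was 0.187% and 0.153% in fruit, against 0.349% to 1.49% in the others. That is the lowest pair of the 28 that can be drawn from 8 libraries. The 2-sided exact permutation p was 0.0714, the smallest the design allows, or 0.357 adjusted over 10 lists. This share is mostly that of miR858, given above, at 0.172% and 0.144% of fruit against 0.325% to 1.40%. miR828 overlapped, at 0.0152% and 0.00869% of fruit against 0.00249% to 0.0988%, and its 3 sequences share 1 seed.

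The list of immune receptor regulators, grouped by family name alone, held 12 tested sequences. Of these, limma called 1 higher and 1 lower, the miR6022 and miR5213 sequences above, beside 2.31% called in either direction over all 216. The median was -0.92, and it was -0.54 scaled to the same total, -0.29 with quantile normalization, 0.21 without fruit 1 and -1.56 without fruit 2. Without simple repeats, which all 6 MIR482d sequences are, it was -1.87. The receptor-like proteins known as miR6022 targets in tomato are not NLR proteins. At an unadjusted p under 0.05 there were 1 higher and 3 lower. Among the miR482 sequences, gra-MIR482d-p5_2 repeated the values of gra-MIR482d-p5_1 in every library and is not a separate measurement. The summed share was 0.494% and 0.366% in fruit, below the 0.609% to 2.06% of the others (exact permutation p = 0.0714, adjusted p = 0.357). By family, miR5213 held 0.0440% and 0.0799% of fruit, against 0.533% to 1.94% in the others. The miR6022 share was above the others, at 0.395% and 0.243% against 0% to 0.0881%, and miR482 and miR2118 overlapped. The low share of the list is thus that of the miR5213 family.

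In the other groups limma called few or none. Of 48 regulators of developmental transcription factors, 1 was called higher and 1 lower, the miR396 and miR171 forms above, beside 0.926% and 1.39% over all 216, with a median of -0.41 that was 0.012 scaled to the same total and 0.15 with quantile normalization. The 19 auxin regulators had 0 calls, 0 higher and 4 lower at an unadjusted p under 0.05, and a median of 0.12, which was 0.71 and 0.46 under the same scalings. With 1 library left out the auxin median ran from -1.05 (without fruit 2) to 0.20, and was below 0 also without fruit 1, root 1, root 2 or flower 2. The 19 regulators of phase change, the passage from juvenile to flowering growth, had 0 calls, 0 and 2 at an unadjusted p under 0.05, and a median of -0.41, which was 0.044 and 0.067 under the same scalings. The 9 nutrient regulators had 0 calls, 0 and 2 at an unadjusted p under 0.05, and a median of -1.08, and in fruit the highest was ptc-miR827_1ss20AC, a regulator of phosphate genes, with 92.1 and 111, against 31.3 to 1217 in the others. The 6 copper regulators had 0 calls, 0 and 0 at an unadjusted p under 0.05, and a median of -0.67, which was -0.41 and -0.15 under the same scalings, 0.34 without fruit 1 and 0.021 without leaf 1. mtr-miR397-5p_L-2R+2, which acts on laccases, led the copper group in fruit with 5.58 and 23.98, against 0 in root and flower and 216 and 40.8 in leaf. Of 19 predicted miRNAs 0 were called, 4 were higher and 2 lower at an unadjusted p under 0.05, and the median was 0.72. The 69 remaining sequences had 1 lower call and a median of -0.90.

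**Figure D3:**
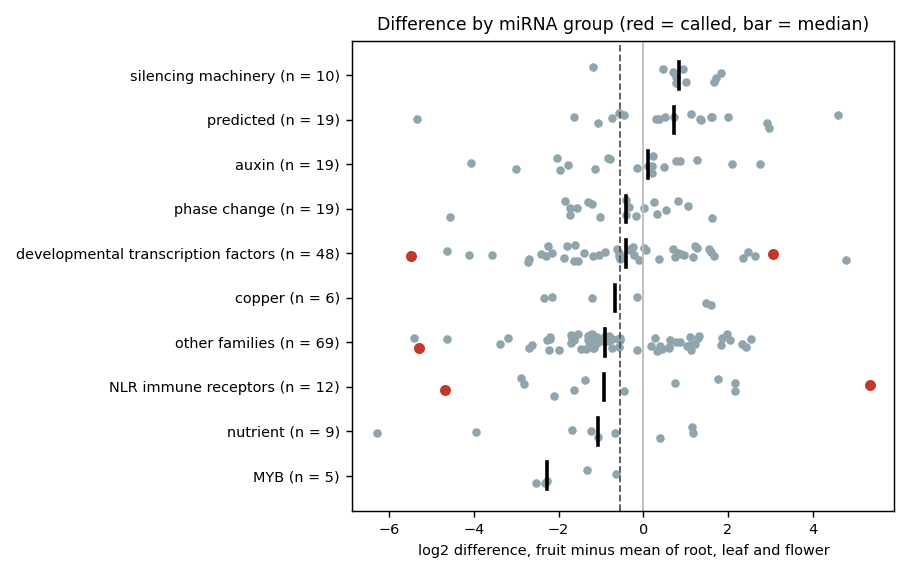
Each point is 1 miRNA's log2 difference, fruit minus the mean of root, leaf and flower, in groups by known target; black bars are medians, the dashed line is the median of all 216 (-0.55) and red points are limma calls. The silencing and predicted groups have medians of 0.85 and 0.72, and the MYB group has -2.26 with all 5 members below 0, also after either scaling.

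The balance between a guide and a sequence of the opposite arm was set out over 13 pairs, chosen after the data were seen and not tested. Whether each pair forms 1 duplex was not checked, and by its letters the miR159 pair does not. The opposite-arm sequence was a larger percent of the guide in both fruit libraries than in the 6 others for 3 pairs, a smaller percent for 1, and overlapped for 9. vvi-MIR159c-p5_1ss10CA was 6.11% and 5.76% of ath-miR159a in fruit, against 0.187% to 4.87% elsewhere. Its values were 4386 and 3160 in fruit, against 317 and 2231 in root, 106 and 268 in leaf and 1140 and 6311 in flower. bdi-miR166e-5p was 8.78% and 9.29% of bdi-miR166a-3p in fruit, against 0.181% to 5.15% elsewhere.

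The widest gap was in miR319, which acts on TCP transcription factors of leaf growth. ppe-MIR319a-p5 was 139.8% and 27.7% of ath-miR319a in fruit, against 0% to 5.39% in the others. The sequence had 253 and 922 in fruit, against 304 and 25.4 in root, 0 and 5.94 in leaf and 12.96 and 35.5 in flower (log2 difference 4.79 ± 1.32 SE, limma adjusted p = 0.176). The guide ath-miR319a had 181 and 3327 in fruit, against 9049 and 2445 in root, 134 and 110.2 in leaf and 1668 and 1004 in flower. For miR156 the order was turned round, and the opposite strand zma-miR156a-3p_1ss22TG was 1.58% and 0.818% of ath-miR156j_1ss14AT in fruit, against 3.33% to 121% elsewhere.

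**Figure D4:**
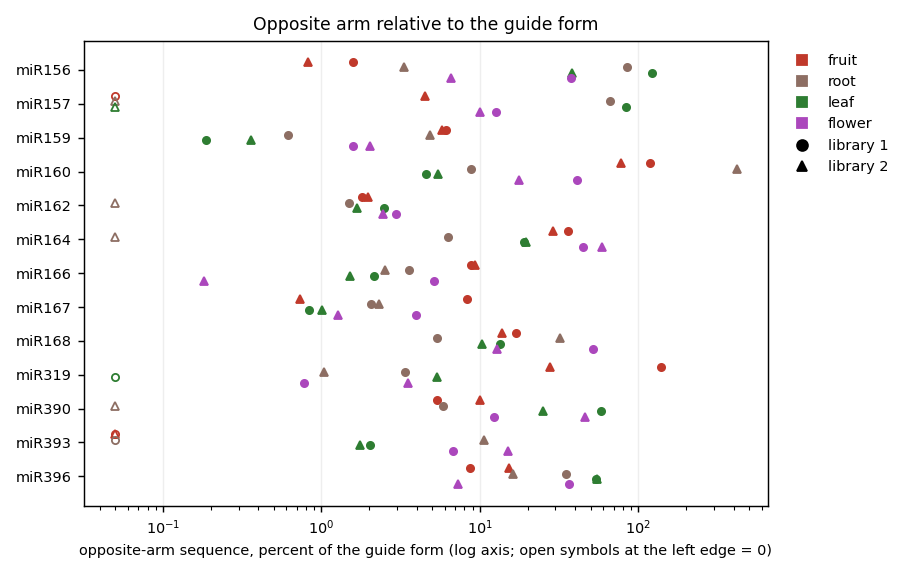
Points give the opposite-arm sequence as a percent of the guide form in each library, on a log axis, for 13 miRNA families; open symbols at the left edge stand for 0. Fruit lies to the right of all other libraries for miR159, miR166 and miR319 and to the left for miR156.

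Fruit 2 held a group of mostly 21 nt miRNAs that fruit 1 held at far lower levels, and fruit 1 held a smaller group at low values. Of 106 miRNAs with a fruit mean of 10 or more, 26 (24.5%) were 4-fold or more apart on the value + 1 scale, 16 higher in fruit 2 and 10 higher in fruit 1. The same count was 68 of 127 in root, 16 of 123 in leaf and 40 of 116 in flower. The median fold between replicates was 1.76 in fruit, 4.45 in root, 1.57 in leaf and 2.62 in flower.

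Of the 16 higher in fruit 2, 14 were 21 nt long, and among the other tissues 12 had their highest mean in flower, 3 in leaf and 1 in root. The 16 together held 1.17% of fruit 1 and 24.7% of fruit 2. Of the 80 miRNAs within 4-fold, 45 were 21 nt long, and 21 had their highest other mean in flower, 26 in leaf and 33 in root. ath-miR157a-5p_2ss12TG15AG, a regulator of the SPL genes that time phase change, had 29.3 in fruit 1 and 15531 in fruit 2. It had 55.5 and 173 in root, 52.4 and 17.8 in leaf and 45306 and 24954 in flower, so fruit 1 lay with root and leaf and fruit 2 nearer to flower. gma-MIR156f-p3_1ss12CG, paired with it as the opposite strand, was listed at 0 in fruit 1 and at 698 in fruit 2, against 0 to 44.0 in root and leaf and 5757 and 2500 in flower.

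vvi-miR167b, which acts on AUXIN RESPONSE FACTOR genes of flower and fruit development, had 1316 in fruit 1 and 18585 in fruit 2. It had 557 and 1495 in root, 33594 and 34830 in leaf and 1865 and 3233 in flower, so fruit 2 lay between flower and leaf. ppe-miR530_L-2R+2 had 33.5 and 1693 in fruit, and ptc-miR530a_R+1_1ss20TG, which shares its seed, had 43.3 and 1336. The common miR171 form was 11.3 times higher in fruit 2, and sly-miR171e had 44.0 and 304 in fruit, against 0 in root, 3.15 and 8.16 in leaf and 658 and 1776 in flower.

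Of the 16, 4 were above 0 in fruit 2 and flower 1 and in no other library, and bdi-miR393b-3p made a group of 5 with that pattern. Their values were 51.6 and 29.4 for bdi-MIR7757-p5_1ss18CT, 38.7 and 30.2 for tae-miR9773_R+1, 36.9 and 23.3 for ata-miR528-5p, 30.4 and 14.3 for ata-miR168-3p_1ss6CG and 10.1 and 6.05 for bdi-miR393b-3p, each in fruit 2 and then flower 1. The ratio of fruit 2 to flower 1 was 1.28 to 2.13 in all 5. All 5 names carry a grass species prefix, against 30 of the 216 tested, and miR528 is known as a family of monocots. No other library shared more than 1 sequence with fruit 2 alone. What these 2 libraries have in common was not tested.

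Of the 10 higher in fruit 1, 8 had their highest other mean in root, 1 was 21 nt long and 4 were simple repeats. Among the 80 within 4-fold, the same counts were 33, 45 and 3, and 15 of all 216 tested were simple repeats. cca-MIR167-p3_1ss2GA, a repeat of 2 letters despite its family name, had 132 in fruit 1 and 1.84 in fruit 2, against 0 to 26.7 elsewhere. Simple repeats summed to 0.206% of fruit 1 and 0.0387% of fruit 2, and to 0.0611% at most in the others. gra-MIR7493b-p3_2ss1TA20AC had 40.5 and 0 in fruit, against 0 to 20.97, and zma-miR159a-3p_1ss8TG had 37.7 and 0, against 0 to 16.3. The 80 miRNAs within 4-fold of each other held 98.2% of fruit 1 and 75.1% of fruit 2.

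**Figure D5:**
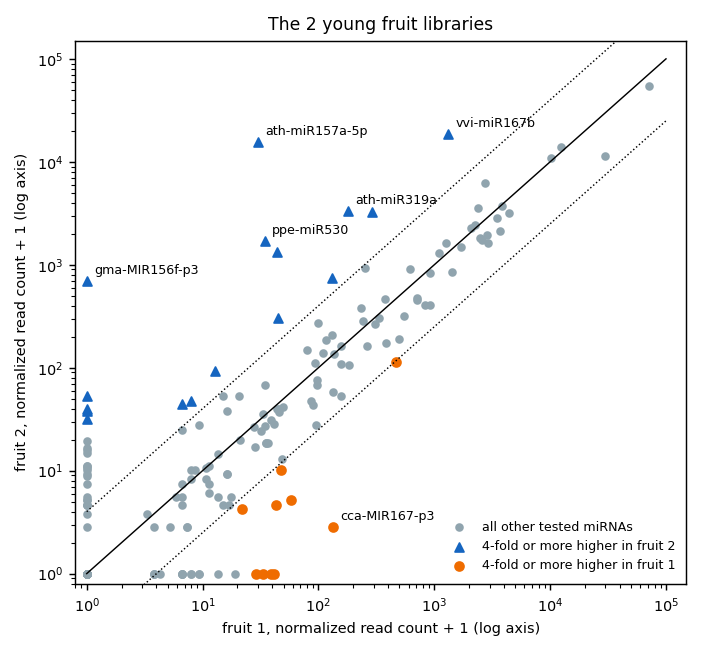
Each point is 1 tested miRNA, with its normalized read count plus 1 in fruit 1 on the x axis and in fruit 2 on the y axis, both log; the solid line marks equality and the dotted lines 4-fold. The 16 triangles are 4-fold or more higher in fruit 2, led by ath-miR157a-5p at 29.3 and 15531, and the 10 large circles are higher in fruit 1.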

How the data were processed

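Small RNA libraries were made from total RNA with a TruSeq small RNA kit, per the labels' protocols. The program ACGT101-miR then discarded adapter dimers, junk, reads from rRNA, tRNA and other common RNAs, and repeats, by the same protocols. The authors deposited 1 table of normalized read counts, treated here as a signal, with the scaling formula, build and versions not given in the sources used here. It held 304 entries, and entries with the same sequence were merged under the name listed first, leaving 270. No genome was used, so no positions are given. In the deposited names the prefix is a miRBase species, L and R count bases gained or lost at each end, and ss marks substitutions.

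Values were taken as log2(value + 1), which understates changes of low values, and modelled in R 4.3.3 by limma 3.58.1 over all 8 libraries. Tissue was the only term, empirical Bayes used a trend, and the fit had 4 residual and 2.43 prior degrees of freedom. The contrast was fruit minus the mean of root, leaf and flower, 2-sided, with Benjamini-Hochberg adjustment over 216 miRNAs and a threshold of 0.05. Folds are ratios of mean values, with none given against a mean of 0. Shares of a library's total were compared by 2-sided exact permutation over 28 picks of 2 libraries, which cannot go below 0.0714, adjusted over 10 lists or 5 length classes. The step taken as 1 read gave whole multiples, within 0.01 of a step, for 72.4% to 79.8% of values above 0, so whole reads could not be rebuilt for a count test.

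The miRNAs named were the 10 highest in fruit, every call, the 10 largest differences in each direction outside the range of the others at a mean of 10 or more, the 8 widest gaps between the fruit libraries, and the leading and called members of each list. Sequences related to these were added for comparison. The lists follow the best-known targets of each family. The members and lists were chosen with earlier results of these data known. Replicate numbers did not pair the libraries. Alternatives covered the pseudocount, filter, scaling, fit, replicate block, entries and each library left out, and without simple repeats was added after seeing the data.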

Additional observations from a re-analysis of the deposited data

How the results depend on the processing

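The 5 calls became 0 with a pseudocount of 10 (32 at an unadjusted p under 0.05), 0 with quantile normalization (33), 0 when the 6 other libraries were fitted as 1 group (17) and 0 with the replicate number as a block (36), and 11 with library weights. Deviations from the tissue mean correlated at -0.20 to 0.24 between same-numbered libraries of different tissues, so the block rests on a shared number alone. Leaving out 1 library gave 0 to 24 calls (20 to 63 at an unadjusted p under 0.05). The other settings gave 4 to 6 calls, and the cause of these changes was not tested. All 5 called miRNAs kept their direction in every setting in which they were tested. The counts outside the range were 9 to 26 above and 12 to 20 below with 1 library left out, and 20 above after scaling to the same total. With fewer libraries the condition is easier to meet, so higher counts with 1 left out are not added support. The 26 miRNAs 4-fold apart between the fruit libraries became 30 after scaling and 19 with a pseudocount of 10.

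With 1 library left out, the difference in percent of the total, fruit minus the others, ran from -4.84 to 3.83 for phase change, -4.35 to 4.38 for auxin, -8.16 to 9.91 for developmental transcription factors, -0.165 to 2.12 for the predicted list and -5.17 to 0.0992 for other families. It ran from -2.49 to 0.562 for 18 and 19 nt and from -0.407 to 6.81 for 21 nt.

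In the silencing list, 7 to 9 members stayed above 0 with 1 library left out, of 8 to 10 tested, and in the MYB list every tested member stayed below 0. These log2 differences changed sign. That of ath-miR159a was -0.31, but 0.25 scaled to the same total and 0.15 with quantile normalization, and it ran from -0.66 to 0.038 with 1 library left out, above 0 without flower 2. Over the libraries left out, the lowest and highest values were -3.96 and 5.04 for ath-miR157a-5p_2ss12TG15AG, -1.69 and 2.13 for vvi-miR167b, -5.75 and 3.70 for gma-MIR156f-p3_1ss12CG, -3.97 and 1.64 for ppe-miR530_L-2R+2, -0.0103 and 5.54 for cca-MIR167-p3_1ss2GA, -1.37 and 4.0003 for gra-MIR7493b-p3_2ss1TA20AC, and -1.45 and 3.82 for zma-miR159a-3p_1ss8TG. The first 2 turned sign without fruit 2, the other 5 without fruit 1, and vvi-miR167b also without root 1, at -0.018. ptc-miR827_1ss20AC ran from -1.54 to 0.20, above 0 without root 2. Depth limits what a listing at 0 can show in every library, root 2 the most.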
